A study of Mus musculus with 6 samples.

Results

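The mitochondrial genome of the mouse carries 37 genes, and the RNA read from them was examined in GC-2spd cells exposed to PM2.5. The genes were taken as all those whose GENCODE M21 name starts with mt-, and 37 of the 54886 genes listed in each library met this rule. They are 13 mRNA genes, 2 rRNA genes and 22 tRNA genes. The rule uses names only and no measured value.

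Mitochondrial DNA is a small circle, present in many copies in a cell, and it is transcribed from both strands into long precursors. In these precursors most mRNAs and rRNAs are flanked by tRNAs, and cutting at the tRNAs releases the separate RNAs. The mRNAs all encode membrane subunits of the respiratory chain and ATP synthase, the rRNAs build the mitochondrial ribosome, and the tRNAs serve only that ribosome. All other proteins of the mitochondrion, including those that transcribe its genome, are encoded in the nucleus. In the testis, spermatocytes rely on oxidative phosphorylation more than spermatogonia do.

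GC-2spd is an immortalised mouse line labelled as spermatocyte-derived, with BALB/c as the strain background. The control group (0 μg/mL, 3 libraries) is labelled untreated. In its cell culture methods the study gave controls normal culture medium and PBS, the liquid in which the particles were suspended. Its transcriptome methods name no such addition. The PM2.5 group (100 μg/mL, 3 libraries) received the particles for 48 h. The particles were a standard reference material of urban dust, and all libraries come from this 1 cell line. The study asked which transcripts respond to this exposure. The labels do not say whether the libraries came from separate cultures, so the p-values below measure only the spread between these libraries, which may be technical.

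The authors deposited FPKM, the fragments assigned to a gene scaled to its length, so levels of different genes can be compared per length. Between libraries the values followed size factors (medians of ratios), 0.769 in control replicate 2 and 1.06 to 1.11 elsewhere, not the total reads. The low values fell on whole multiples of 1 read, from which the reads behind each value were recovered. The recovered depth was 16209350 to 18003199 reads per library. Across the 11884 genes tested, control replicate 2 stood apart: its log2(FPKM + 1) had a correlation of 0.732 to 0.780 with the other libraries, while control replicates 1 and 3 reached 0.992 with each other and PM2.5 replicates 1 and 2 reached 0.991. PM2.5 replicate 3 had a correlation of 0.9502 and 0.958 with PM2.5 replicates 1 and 2, lower than its 0.9721 and 0.9723 with control replicates 1 and 3. Group comparisons are given with and without control replicate 2 for this reason, and because its high mitochondrial share was already known. The p-values without it thus depend on leaving out a control whose mitochondrial level is itself examined here. Of 11 spermatocyte markers 1, Sycp3 of the synaptonemal complex, reached 10 reads in a library (0 to 42 reads), and 4 had no read in any library. Ddx4, a defining germ cell gene, had 0 to 7 reads, whereas the collagen gene Col1a1 of fibroblasts had 22897 to 51017. The labelled cell type was thus not borne out by its defining markers. Sertoli cell, Leydig cell and macrophage markers had at most 54, 12 and 252 reads in a library, with the macrophage markers Ptprc and Adgre1 at 0 in all.

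Positions below are from GENCODE M21 on GRCm38, since the files list genes without coordinates. On the mitochondrial chromosome 28 of the 37 genes lie on the plus strand and 9 on the minus strand (mt-Nd6 and 8 tRNAs). The genes are closely packed, with lengths of 204 to 1824 bases for the mRNAs, 955 and 1582 bases for the rRNAs and 59 to 75 bases for the tRNAs, which are shorter than a 150-base read. Several genes overlap, and a read in an overlap cannot be assigned to 1 gene with certainty. The longest overlap joins mt-Atp8 (chrM:7766-7969) and mt-Atp6 (chrM:7927-8607), the subunits of ATP synthase. It is shown because mt-Atp8 was the mRNA with the fewest reads. The capitals mark the bases that belong to both genes, from chrM:7907-7969 on the plus strand.
mt-Atp8 and mt-Atp6: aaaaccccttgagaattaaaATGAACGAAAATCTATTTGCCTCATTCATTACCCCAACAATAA

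The opposite-strand genes mt-Nd5 (chrM:11742-13565) and mt-Nd6 (chrM:13552-14070) share 14 bases. The labels do not say whether the counting used the strand, so reads of mt-Nd6 and of antisense RNA across it cannot be told apart. The same holds for the tRNAs of the minus strand.

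A second limit is sequence shared with the nucleus. In GENCODE M21, 7 expressed nuclear genes (average FPKM of 1 or more) have at least 50% of their 31-base sequences in common with mitochondrial genes. All 7 lie on the minus strand of chr1:24611535-24616197, in the same 5′ to 3′ order as mt-Co1 to mt-Nd4. Gm10222 (mt-Nd4l), Gm10925 (mt-Atp6), Gm28437 (mt-Co3), Gm28439 (mt-Nd4) and Gm28661 (mt-Co2) had no mismatch over the 294 to 876 bases that could be aligned. Gm28438, the copy of mt-Nd3, had 1 mismatch in 345 bases, and Gm29216, the copy of mt-Co1, had 6 in 492. The stretches that hold these mismatches are shown because they are the only bases, in the aligned parts, by which a read of these genes can be told from a read of its copy. Capitals mark the bases that differ, and each sequence is written in the direction of its gene, from chrM:9459-9481 (plus), chr1:24613097-24613119 (minus), chrM:6381-6403 (plus) and chr1:24616175-24616197 (minus).
mt-Nd3: atTaacctgtacactgttatctt
Gm28438: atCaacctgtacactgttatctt
mt-Co1: ggTCtAAcCggaAttgttttatc
Gm29216: ggATtGGcAggaTttgttttatc

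Counted from 1 at the first base of the mitochondrial gene, with the mitochondrial base first and the base of the copy last, the differences were T3C in mt-Nd3 and T1056A, C1057T, A1059G, A1060G, C1062A and A1066T in mt-Co1.

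Of the 37 genes, 33 had reads in at least 1 library. The tRNA genes mt-Tf, mt-Ts1, mt-Td and mt-Tk, for phenylalanine, serine, aspartate and lysine, had 0 reads in all 6 libraries. A count of 0 allows up to 3 reads, or an FPKM of 2.31 to 3.56 for these short genes. The 33 genes with reads all passed the filter of a mean FPKM of at least 1. One of them, mt-Atp8, passed only through control replicate 2, and 32 passed in the other 5 libraries.

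The share of reads on mitochondrial genes was far higher in control replicate 2 than in any other library. It was 1.65%, 14.5% and 1.75% in control replicates 1, 2 and 3, and 1.70%, 1.95% and 1.93% in PM2.5 replicates 1, 2 and 3. The Wilson 95% intervals of these shares were at most 0.0342 percentage points wide and cover counting error only. The controls averaged 5.95% ± 7.37 (SD, n = 3) and the PM2.5 libraries 1.86% ± 0.142 (SD, n = 3), a difference smaller than the control spread (two-sided exact permutation test, p = 0.9, where 0.1 is the smallest p possible). Without control replicate 2 the direction turned, with 1.70% ± 0.0712 (SD, n = 2) in the controls (exact permutation test, p = 0.4, smallest possible 0.2). In bulk RNA a change in the cells present and a change of RNA per cell cannot be told apart.

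All 3 classes were highest in control replicate 2. Its mRNA share was 13.8%, against 1.55% to 1.84% in the other 5 libraries. Its rRNA share was 0.571%, against 0.0773% to 0.163%. Its tRNA share was 0.0437%, against 0.00371% to 0.00865%. Relative to the mean of control replicates 1 and 3 these were 8.67-, 6.06- and 8.79-fold. In the other 5 libraries PM2.5 replicate 3 had the highest rRNA and tRNA shares, but not the highest mRNA share. Within the mitochondrial reads, rRNA made up 8.43% in PM2.5 replicate 3 and 3.95% to 5.79% elsewhere. The study names its library kit but no step that selects mRNA or removes rRNA, so rRNA levels may reflect the preparation.

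**Figure D1:**
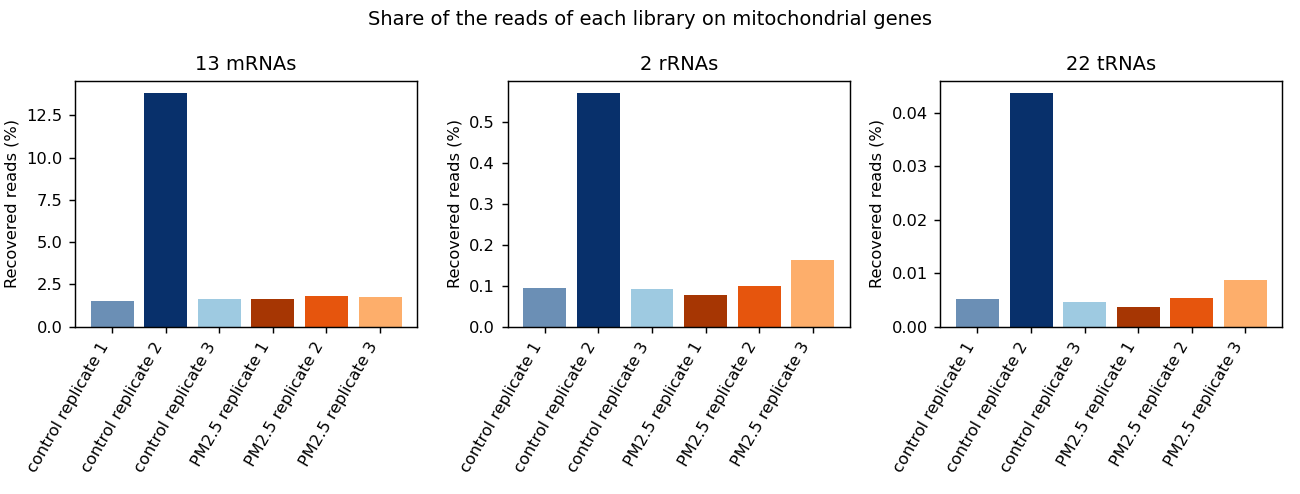
Bars give the percentage of all recovered reads (linear axes from 0, a different scale in each panel) on the 13 mRNAs, 2 rRNAs and 22 tRNAs in each of the 6 libraries, with 1 bar per library and so no error bar. Control replicate 2 is the tallest bar in each panel, at 13.8%, 0.571% and 0.0437%, and PM2.5 replicate 3 is next for rRNA and tRNA.

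Gene by gene, control replicate 2 was the highest of the 6 libraries for 31 of the 37 genes, among them all 13 mRNAs, both rRNAs and 16 tRNAs. For the 24 genes with at least 10 reads in every library, its FPKM was 2.83 to 35.6 times the mean of control replicates 1 and 3, with a median of 9.73. The factor was thus not uniform across the genome. The FPKM divisor was 0.80 of the total reads in control replicate 2 and 1.03 to 1.05 elsewhere, which raises each factor alike. Among the 5 macrophage markers, of which 2 reached 10 reads, Cd68 had 252 reads in this library and 17 to 41 in the others. The spermatocyte marker Sycp3 was also highest in this library, with 42 reads, against 0 to 10 in the others. The summed FPKM of the macrophage list was 1.13 to 15.5 in the controls and 1.4003 to 2.504 in the PM2.5 libraries. The 5 fibroblast markers summed to 638 to 659 in the controls and 324 to 588 after PM2.5. The part of other cells in the mitochondrial level was not tested.

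**Figure D2:**
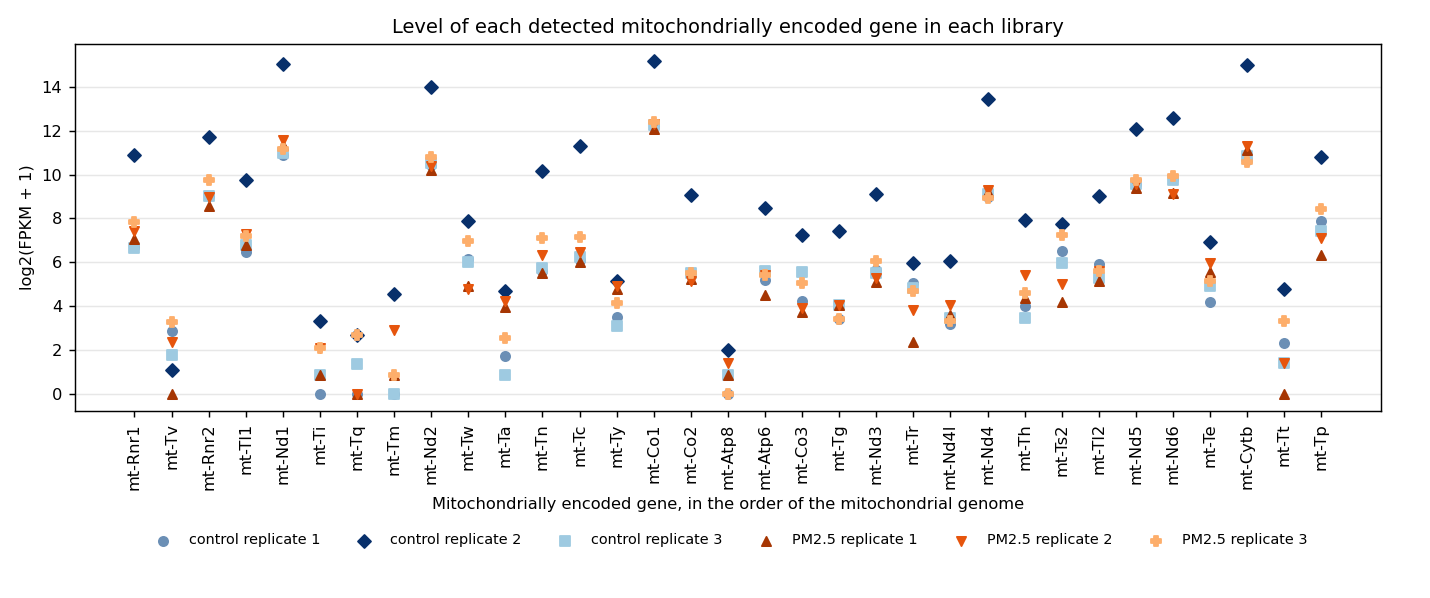
Each column is 1 of the 33 mitochondrially encoded genes with reads, in genome order, and each symbol is the log2(FPKM + 1) of 1 library (blue for control, orange for PM2.5). The dark diamonds of control replicate 2 lie above all other symbols in 31 columns, by amounts that differ between genes.

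Comparing the PM2.5 group with the control group over all 6 libraries, none of the 33 mitochondrial genes passed limma at an adjusted p under 0.05, against 0.0926% of the 11884 genes tested (11 genes). At an unadjusted p under 0.05 there was 1 of the 33 (3.03%), mt-Tr, against 3.8% of all genes. With voom on the recovered reads 0 of the 33 were called and 0 had an unadjusted p under 0.05. The log2 fold change (on log2(FPKM + 1), as all below) was below 0 for 28 genes and above 0 for 5, and its median over the 13 mRNAs was -1.18, beside 0.02 over all genes. The standard errors of the mRNAs were 0.61 to 1.22, and every adjusted p was 0.875 or higher (limma).

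Without control replicate 2, again 0 of the 33 were called by limma without the replicate number as a block, against 0.993% of all genes (118 genes). At an unadjusted p under 0.05 there were 7 (21.2%), against 15.9% of all genes. All 7 were higher in the PM2.5 group: mt-Nd1, mt-Rnr1, mt-Th, mt-Te, mt-Ty, mt-Ta and mt-Ti. With voom 0 were called and 5 had an unadjusted p under 0.05. The median log2 fold change of the 13 mRNAs was then 0.01, with 7 above 0 and 6 below, beside -0.01 over all genes. Of those above 0, mt-Atp8 passed the filter only through control replicate 2. The lowest adjusted p among the 33 was 0.136 (mt-Ty). For 1 of the 33 genes, mt-Tr, the groups did not overlap with all 6 libraries, against 15.2% of all genes. Without control replicate 2 this held for 10 genes, 9 higher and 1 lower, against 37.3% of all genes. In none of these counts did the share of mitochondrial genes stand far above that of all genes.

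**Figure D3:**
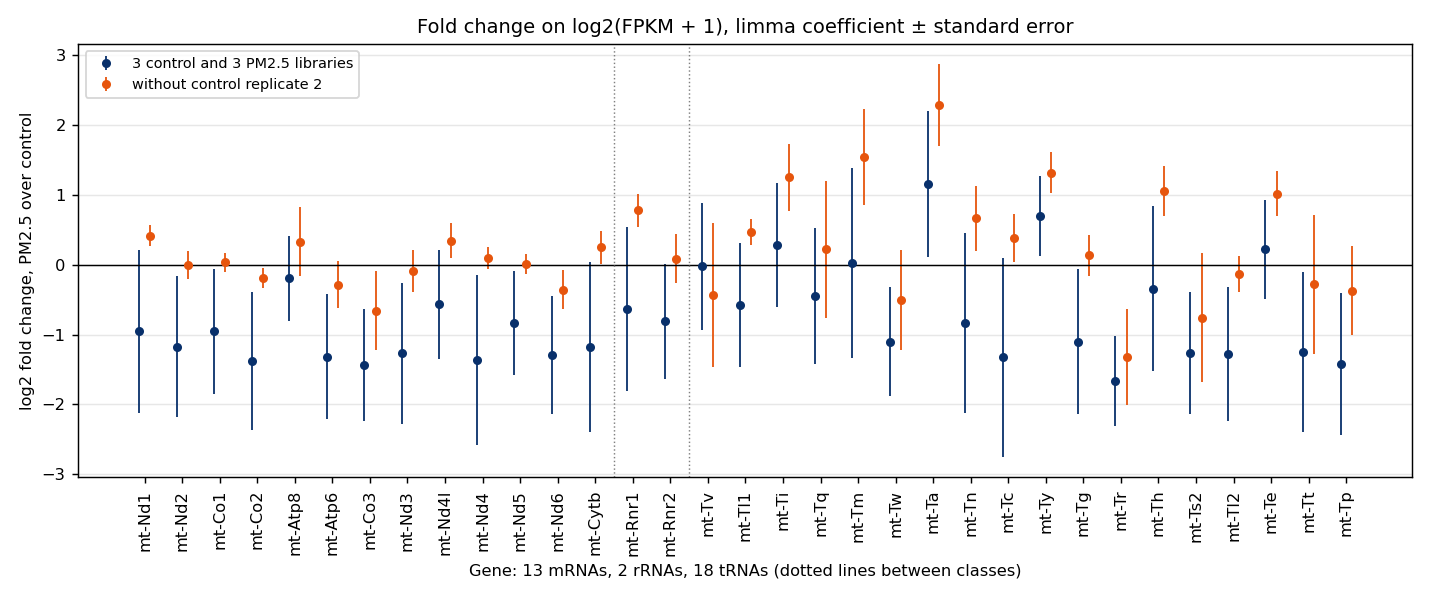
Points are the log2 fold changes of PM2.5 over control on log2(FPKM + 1) for the 33 genes tested, with bars of 1 standard error from limma, using all 6 libraries (blue) or without control replicate 2 (orange). With all libraries 28 points lie below 0 with wide bars, and without control replicate 2 the mRNAs scatter around 0 with a median of 0.01.

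Of the 7 complex I subunits, mt-Nd1 (chrM:2751-3707) encodes the one next to the ubiquinone site. Its FPKM was 1906, 34016 and 2051 in control replicates 1, 2 and 3, and 2577, 3046 and 2336 in PM2.5 replicates 1, 2 and 3. All PM2.5 libraries were above control replicates 1 and 3 and far below control replicate 2. The log2 fold change was -0.95 ± 1.17 (SE) with all libraries and 0.42 ± 0.15 without control replicate 2 (limma, adjusted p = 0.875 and 0.286). mt-Nd2 (chrM:3914-4951), a proton-pumping subunit, had 1395, 16262 and 1476 in the controls and 1186, 1355 and 1806 in the PM2.5 libraries. Here PM2.5 replicate 3 was the highest of the 5 remaining libraries, and the log2 fold change was -1.18 ± 1.01 with all libraries and -0.01 ± 0.20 without control replicate 2.

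The other pumping subunits, mt-Nd4 and mt-Nd5, did not separate the groups. mt-Nd4 (chrM:10167-11544) had an FPKM of 505, 11049 and 562 in the controls and 597, 638 and 485 after PM2.5. mt-Nd5 had 753, 4369 and 768 in the controls and 669, 768 and 871 after PM2.5. Control replicate 2 was thus 20.7 times the mean of the other controls for mt-Nd4 but 5.74 times for mt-Nd5, its downstream neighbour among the mRNAs. The log2 fold changes were -1.36 ± 1.22 and -0.83 ± 0.74 with all libraries, and 0.10 ± 0.15 and 0.01 ± 0.14 without control replicate 2. mt-Nd6, a membrane subunit and the only mRNA of the minus strand, had 879, 6131 and 868 in the controls and 576, 554 and 993 after PM2.5. PM2.5 replicates 1 and 2 were below every control and PM2.5 replicate 3 was above control replicates 1 and 3, so the groups overlapped. Its log2 fold change was -1.29 ± 0.84 with all libraries and -0.36 ± 0.28 without control replicate 2 (limma, adjusted p = 0.875 and 0.580). mt-Nd3 (chrM:9459-9806), a small subunit, had 49.1, 556 and 44.8 in the controls and 33.8, 38.1 and 66.0 after PM2.5. mt-Nd4l (chrM:9877-10173), the smallest of them, had 7.98, 64.9 and 9.90 in the controls and 10.9, 15.8 and 8.94 after PM2.5. The log2 fold changes of the pair were -1.27 ± 1.00 and -0.57 ± 0.78 with all libraries, and -0.09 ± 0.30 and 0.35 ± 0.25 without control replicate 2. Both have copies on chromosome 1, and their levels are uncertain for that reason.

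mt-Cytb (chrM:14145-15288) encodes cytochrome b, the only subunit of complex III from this genome. Its FPKM was 1615, 33257 and 1834 in the controls and 2243, 2496 and 1521 in the PM2.5 libraries. PM2.5 replicates 1 and 2 were above control replicates 1 and 3, and PM2.5 replicate 3 was below both. The log2 fold change was -1.18 ± 1.22 with all libraries and 0.25 ± 0.24 without control replicate 2 (limma, adjusted p = 0.875 and 0.652).

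In complex IV, mt-Co1 (chrM:5328-6872) encodes the catalytic subunit of cytochrome c oxidase and had the highest listed level of all 37 genes in each library. Its FPKM was 4698, 37660 and 4967 in the controls and 4333, 5154 and 5409 in the PM2.5 libraries. Apart from control replicate 2 the libraries lay close together. For mt-Co1 the log2 fold change was -0.95 ± 0.90 with all libraries and 0.03 ± 0.14 without that library, where its 95% interval was -0.32 to 0.38. mt-Co2 (chrM:7013-7696), whose product takes electrons from cytochrome c, had 42.9, 532 and 44.3 in the controls and 36.2, 34.2 and 44.4 after PM2.5. mt-Co3 (chrM:8607-9390), another core subunit, had 18.01, 151 and 46.5 in the controls and 12.49, 14.3 and 32.5 after PM2.5. For both the groups overlapped. Their log2 fold changes were -1.38 ± 0.99 and -1.44 ± 0.80 with all libraries, and -0.19 ± 0.14 and -0.66 ± 0.56 without control replicate 2.

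For ATP synthase, mt-Atp6, which encodes a subunit of the proton channel, had an FPKM of 35.1, 355 and 47.9 in the controls and 21.6, 41.6 and 41.3 in the PM2.5 libraries, with log2 fold changes of -1.32 ± 0.89 with all libraries and -0.29 ± 0.34 without control replicate 2. mt-Atp8, which encodes a small accessory subunit, had 0, 8 and 3 reads in the controls and 3, 6 and 0 in the PM2.5 libraries. These counts are too few to compare the groups at this depth. The overlap with mt-Atp6 takes 43 of its 204 bases.

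The mRNAs shared almost whole with nuclear transcripts had low levels, while partly shared mRNAs did not. The 5 mRNAs with at least 97.59% of their 100-base windows in nuclear transcripts (mt-Co2, mt-Atp6, mt-Co3, mt-Nd3 and mt-Nd4l) had a mean FPKM of 10.7 to 46.3 over the 5 libraries other than control replicate 2. The partly shared mt-Nd2 (3.195%), mt-Co1 (30.84%) and mt-Nd4 (60.75%) had 1444, 4912 and 557. Among the 7 mRNAs and rRNAs with no shared window the median was 766, with mt-Atp8 lowest at 0.659 and mt-Nd1 highest at 2383. Genes cut from the same precursor thus differed by more than 100 times in their listed level, and the part of the shared sequence in this was not tested beyond these values.

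The copies themselves also had reads. Reads on the 7 copies summed to 1764, 12586 and 1828 in the controls and 1099, 1270 and 2020 after PM2.5, again highest in control replicate 2. Of the reads on mt-Atp6 and Gm10925 together, 48.7% to 61.1% were listed under Gm10925. For mt-Co2 and Gm28661 the copy held 32.3% to 51.4%, and for mt-Nd3 and Gm28438 8.91% to 13.003%. Values of these mRNAs and of their copies are therefore uncertain one by one. With limma 0 of the 7 copies were called with all libraries or without control replicate 2.

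**Figure D4:**
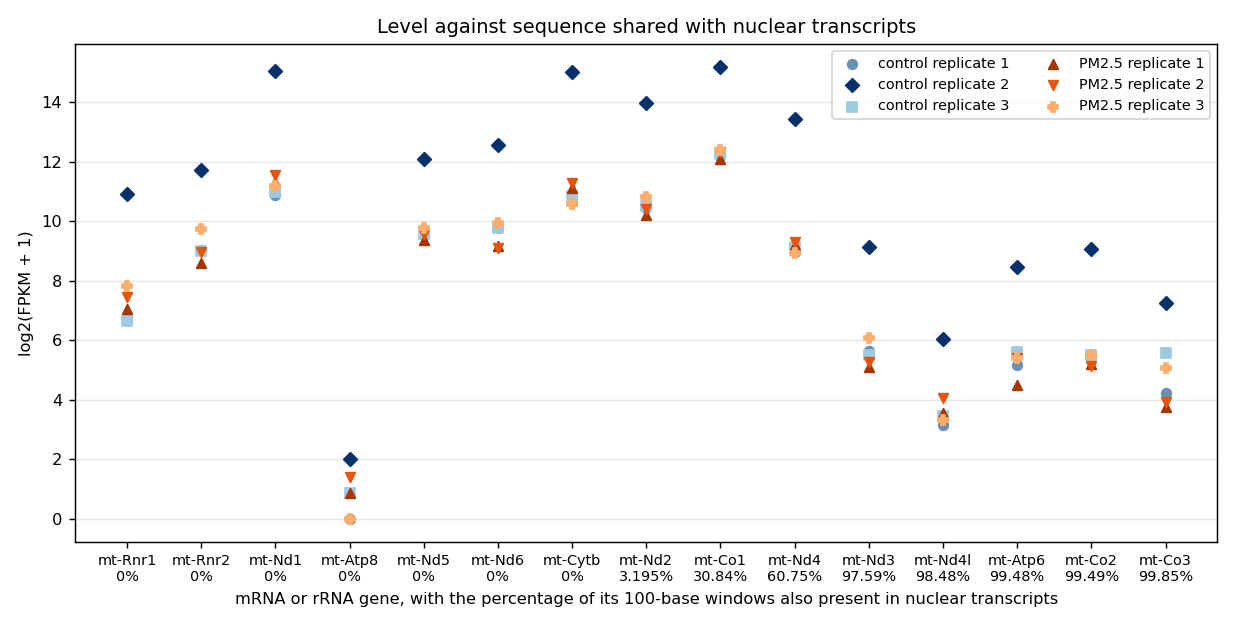
The 13 mRNAs and 2 rRNAs are ordered by the percentage of their 100-base windows also found in nuclear transcripts (given under each name), and symbols are the log2(FPKM + 1) of each library. The 5 genes at the right, with 97.59% or more shared, lie below all others but mt-Atp8 in each library.

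The make-up of the mRNA pool takes out the total level, and control replicate 2 differed in this too. The parts are of listed levels, and those of mt-Co2, mt-Atp6, mt-Co3, mt-Nd3 and mt-Nd4l are uncertain from shared sequence. Those of mt-Nd2, mt-Co1 and mt-Nd4 are limited in part, with 3.195%, 30.84% and 60.75% of their 100-base windows shared. mt-Co1 held 39.5%, 26.1% and 39.0% of the summed FPKM of the 13 mRNAs in control replicates 1, 2 and 3, and 35.2%, 36.4% and 39.7% in PM2.5 replicates 1, 2 and 3. mt-Nd1 held 16.01%, 23.6% and 16.1% in the controls and 20.95%, 21.5% and 17.2% after PM2.5. mt-Cytb held 13.6%, 23.0% and 14.4%, and 18.2%, 17.6% and 11.2%. In control replicate 2, mt-Nd1 and mt-Cytb thus took a larger part and mt-Co1 a smaller one, and PM2.5 replicates 1 and 2 lay between it and the other controls. PM2.5 replicate 3 was close to control replicates 1 and 3 for mt-Co1 and mt-Nd1, and below all libraries for mt-Cytb. mt-Nd6 held 7.38%, 4.25% and 6.83% in the controls and 4.68%, 3.91% and 7.29% after PM2.5. mt-Nd2 held 9.57% to 13.3% over all 6 libraries.

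The mean part of mt-Co1 was 34.9% ± 7.61 (SD, n = 3) in the controls and 37.1% ± 2.33 (SD, n = 3) after PM2.5, a difference of 2.26 percentage points that is smaller than the control spread. Without control replicate 2 it was -2.13 percentage points. These differences were given no test. For mt-Nd4 the part was 7.65% in control replicate 2 and 3.56% to 4.85% elsewhere, and for mt-Nd5 it was 3.03% and 5.42% to 6.40%.

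**Figure D5:**
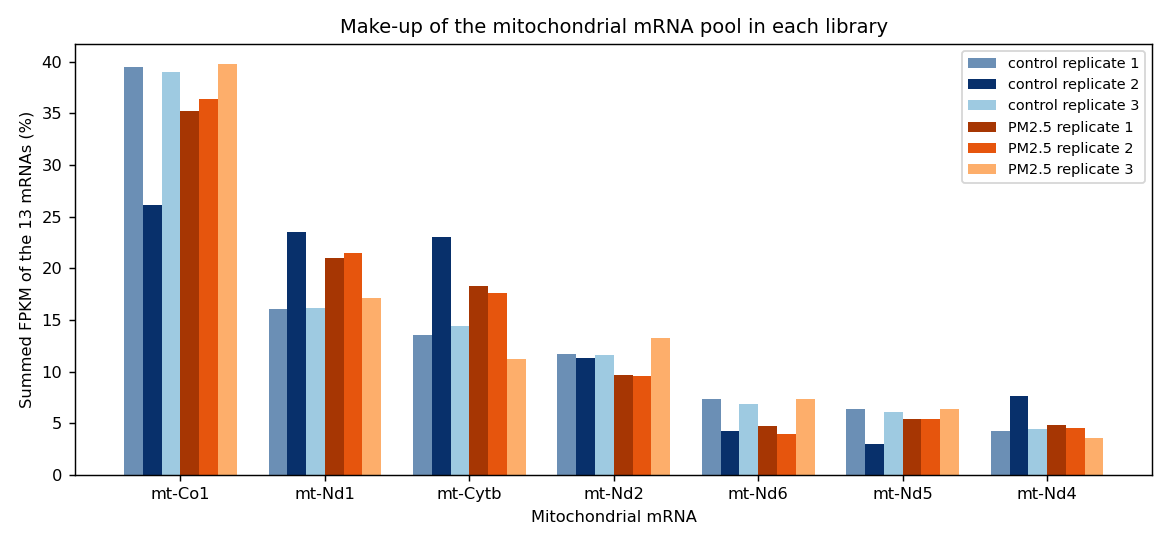
Bars give the percentage of the summed FPKM of the 13 mitochondrial mRNAs held by each of the 7 mRNAs with the largest parts, 1 bar per library (linear axis from 0, no error bars). mt-Co1 is lowest in control replicate 2 (26.1%), where mt-Nd1 (23.6%) and mt-Cytb (23.0%) are highest.

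The 2 rRNAs followed different patterns. mt-Rnr1 (chrM:70-1024) encodes the RNA of the small ribosomal subunit and also holds the reading frame of the peptide MOTS-c. Its FPKM was 103, 1916 and 98.8 in the controls and 132, 174 and 226 in the PM2.5 libraries. All PM2.5 libraries were above control replicates 1 and 3. The log2 fold change was -0.64 ± 1.18 with all libraries and 0.78 ± 0.24 without control replicate 2 (limma, adjusted p = 0.892 and 0.232). mt-Rnr2 (chrM:1094-2675) encodes the RNA of the large subunit and is the gene in which humanin was described in human cells. Its FPKM was 522, 3356 and 513 in the controls and 385, 502 and 863 after PM2.5. PM2.5 replicates 1 and 2 were below the controls and PM2.5 replicate 3 was above control replicates 1 and 3, with a log2 fold change of -0.81 ± 0.82 with all libraries and 0.09 ± 0.35 without control replicate 2. The ratio of mt-Rnr1 to mt-Rnr2, looked at after the values were seen and not tested, was 0.197, 0.571 and 0.192 in the controls and 0.344, 0.347 and 0.262 after PM2.5.

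Of the 22 tRNAs, 10 had at least 10 reads in every library, 8 had reads in some libraries with fewer than 10 in at least 1, and 4 had none. At less than 0.05% of the reads in each library, tRNAs were covered thinly. The sources used here do not say how reads spanning neighbouring genes were counted. tRNA values may therefore include reads of precursors and of neighbouring genes, which could not be told from mature tRNA, or may miss such reads. Of the tRNAs that adjoin mt-Rnr2 without a gap, mt-Tv had 0 to 11 reads and mt-Tl1 122 to 848. The sequences of 4 are shown because they carry the extremes: mt-Tc had the largest factor in control replicate 2, mt-Ta and mt-Ty the lowest p-values without that library, and mt-Tr the lowest with all libraries. They are written in the direction of the gene, with the anticodon, found as the middle of a 7-base loop closed by a stem of 5 pairs, in capitals. Their positions are chrM:5192-5257 (minus), chrM:5018-5086 (minus), chrM:5260-5326 (minus) and chrM:9808-9875 (plus).
mt-Tc: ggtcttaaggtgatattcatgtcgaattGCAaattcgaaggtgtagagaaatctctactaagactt
mt-Ta: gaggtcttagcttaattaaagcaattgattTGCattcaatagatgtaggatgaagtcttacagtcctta
mt-Ty: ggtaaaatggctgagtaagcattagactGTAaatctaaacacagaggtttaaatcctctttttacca
mt-Tr: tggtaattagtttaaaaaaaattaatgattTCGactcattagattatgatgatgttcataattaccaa

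mt-Tn (chrM:5089-5159) and mt-Tc, the tRNAs for asparagine and cysteine on either side of the light-strand replication origin, had the largest factors in control replicate 2. The FPKM of mt-Tc was 67.8, 2521 and 73.9 in the controls and 63.6, 87.1 and 143 in the PM2.5 libraries, and control replicate 2 was 35.6 times the mean of the other controls. For mt-Tn it was 47.1, 1136 and 52.3 in the controls and 44.9, 80.2 and 137 after PM2.5, a factor of 22.9. The neighbouring mt-Ta and mt-Ty, for alanine and tyrosine and on the same strand, had fewer reads. mt-Ty had 10.5, 34.5 and 7.45 in the controls and 26.7, 29.4 and 16.5 after PM2.5. mt-Ta had 3, 22 and 1 reads in the controls and 18, 22 and 6 after PM2.5. For both, all PM2.5 libraries lay above control replicates 1 and 3, with log2 fold changes of 1.32 ± 0.29 (mt-Ty) and 2.29 ± 0.59 (mt-Ta) without control replicate 2 and adjusted p of 0.136 and 0.183 (limma). With all libraries these were 0.70 ± 0.57 and 1.16 ± 1.04.

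mt-Tr, the tRNA for arginine, was the one mitochondrial gene whose groups did not overlap over all 6 libraries. It had 41, 55 and 34 reads in the controls and 5, 16 and 31 after PM2.5, or an FPKM of 32.5, 62.4 and 27.7 against 4.12, 13.3 and 25.2. The highest PM2.5 library was close to the lowest control. The log2 fold change was -1.66 ± 0.65 (limma, adjusted p = 0.875), and -1.32 ± 0.69 without control replicate 2 (adjusted p = 0.427).

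In several plus-strand tRNAs and in mt-Tp the PM2.5 libraries lay on both sides of control replicates 1 and 3. mt-Tp (chrM:15356-15422), for proline, had an FPKM of 238, 1796 and 172 in the controls and 79.4, 137 and 350 after PM2.5. mt-Ts2 (chrM:11613-11671), for serine, had 89.5, 214 and 62.0 in the controls and 17.1, 31.5 and 151 after PM2.5. mt-Tw (chrM:4950-5016), for tryptophan, had 70.0, 234 and 62.9 in the controls and 29.2, 26.9 and 126 after PM2.5. In each of these, PM2.5 replicates 1 and 2 were below all controls and PM2.5 replicate 3 was above control replicates 1 and 3.

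The tRNAs for histidine, glutamate and the first leucine gene were higher in the PM2.5 libraries than in control replicates 1 and 3, though not than in control replicate 2. mt-Th (chrM:11546-11612) had an FPKM of 15.3, 244 and 9.93 in the controls and 20.05, 41.2 and 23.1 after PM2.5. mt-Te (chrM:14071-14139) had 17.2, 121 and 28.9 in the controls and 46.2, 61.3 and 34.5 after PM2.5. mt-Tl1 (chrM:2676-2750) had 87.6, 872 and 109 in the controls and 111, 154 and 145 after PM2.5. With all libraries the log2 fold changes of these 3 were -0.34 ± 1.18, 0.22 ± 0.71 and -0.58 ± 0.89. These became 1.06 ± 0.36, 1.01 ± 0.32 and 0.47 ± 0.19 without control replicate 2, with adjusted p of 0.267, 0.249 and 0.326 (limma). The second leucine gene mt-Tl2 had 59.95, 516 and 37.5 in the controls and 34.7, 48.4 and 47.5 after PM2.5. mt-Tg, for glycine, had 9.51, 170 and 15.5 in the controls and 15.6, 15.7 and 9.77 after PM2.5. These last genes overlapped between the groups. The 5 tRNAs left, mt-Tv, mt-Ti, mt-Tq, mt-Tm and mt-Tt, had 0 to 23 reads in any library, which is too few to compare the groups, although mt-Ti had an unadjusted p of 0.0491 without control replicate 2.

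The nuclear genes that serve mitochondrial gene expression were counted from 5 lists holding 49 genes, 46 of them tested. With limma on all libraries 0 of the 46 were called, against 0.0926% of all genes, and 1 had an unadjusted p under 0.05, against 3.8%, and voom called 0. The median log2 fold change was -0.13 for 6 transcription genes, 0.04 for 8 replication genes, 0.30 for 4 transcript cleavage genes, 0.14 for 14 RNA stability genes and -0.09 for 14 RNA modification genes. Without control replicate 2, 1 of the 46 was called, Pus1, against 0.993% of all genes, and 5 had an unadjusted p under 0.05, against 15.9% of all genes. Pus1 (chr5:110773667-110780659, minus strand) encodes a pseudouridine synthase of tRNAs, and it was higher in the PM2.5 group. Its FPKM was 10.5, 13.2 and 10.0 in the controls and 17.6, 16.6 and 16.9 after PM2.5, with no overlap between the groups. The log2 fold change was 0.57 ± 0.19 with all libraries (limma, adjusted p = 0.875) and 0.68 ± 0.09 without control replicate 2 (adjusted p = 0.0458). Without that library, neither voom nor limma with the replicate number as a block called Pus1.

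The genes that transcribe the mitochondrial genome gave no call. Polrmt, the mitochondrial RNA polymerase, had an FPKM of 9.76, 23.1 and 10.0 in the controls and 12.7, 11.5 and 6.89 after PM2.5. Tfam, which packages mitochondrial DNA and starts transcription, had 23.3, 17.4 and 22.4 in the controls and 17.4, 18.4 and 24.6 after PM2.5. For Tfam control replicate 2 was thus at the low end of the libraries, unlike the genes encoded by that DNA. Tfb2m, the other initiation factor, had 10.9, 17.98 and 11.5 in the controls and 10.2, 9.89 and 13.2 after PM2.5. Tefm, the elongation factor, was lowest in control replicate 2, with 6.66, 3.63 and 8.58 in the controls and 6.35, 7.36 and 8.78 after PM2.5. Lrpprc, which stabilises mitochondrial mRNAs, had 13.7, 15.7 and 13.4 in the controls and 13.8, 14.4 and 19.6 after PM2.5. Its partner Slirp was listed at 0.0363 to 0.695 in all libraries and was not tested.

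The nuclear partners of the 13 proteins were counted from 76 genes of complexes I to V, all tested. With limma 0 were called with all libraries, against 0.0926% of all genes, and 1 had an unadjusted p under 0.05, against 3.8%. Without control replicate 2, 0 were called, against 0.993%, and 9 had an unadjusted p under 0.05, 8 of them higher in the PM2.5 group, against 15.9% of all genes (978 higher and 907 lower). voom called 0 in both. The median log2 fold change with all libraries was -0.44 for the 36 genes of complex I, 0.12 for 4 of complex II, -0.18 for 9 of complex III, -0.47 for 11 of complex IV and -0.05 for 16 of complex V. Without control replicate 2 these were 0.12, -0.01, 0.07, -0.06 and 0.08.

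Control replicate 2 was above the mean of the other controls for 61 of these 76 genes and for 33 of the 36 of complex I, against 5648 of all 11884 genes. The median log2 difference was 1.21 over the 76 genes, beside 3.08 over the 13 mitochondrial mRNAs and -0.07 over all genes. Ndufa5, a peripheral subunit of complex I, had an FPKM of 33.3, 547 and 36.7 in the controls and 53.8, 52.6 and 43.3 after PM2.5. Ndufa3, another accessory subunit, had 12.7, 206 and 14.5 in the controls and 22.8, 22.7 and 17.4 after PM2.5. Ndufs5 had 41.4, 159 and 48.7 in the controls and 59.5, 59.97 and 64.2 after PM2.5. For these 3, all PM2.5 libraries were above control replicates 1 and 3 and below control replicate 2. The log2 fold changes were -0.81 ± 1.08, -0.69 ± 1.06 and -0.16 ± 0.52 with all libraries, and 0.50 ± 0.13, 0.58 ± 0.15 and 0.44 ± 0.11 without control replicate 2 (limma, adjusted p = 0.189, 0.187 and 0.170 in the latter). Ndufb2, a further accessory subunit, ran the other way and did not stand apart in control replicate 2, with 5.42, 5.59 and 4.96 in the controls and 2.36, 2.84 and 3.95 after PM2.5. Its log2 fold change was -0.66 ± 0.20 with all libraries (limma, adjusted p = 0.875) and -0.63 ± 0.19 without control replicate 2. Ndufb9 had 62.3, 129 and 59.8 in the controls and 33.9, 34.9 and 69.6 after PM2.5. Atp5g2, which encodes a ring subunit of ATP synthase, had 30.9, 33.3 and 36.9 in the controls and 66.2, 67.2 and 32.6 after PM2.5. For both, PM2.5 replicate 3 was with the controls and apart from PM2.5 replicates 1 and 2.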

How the data were processed

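RNA of 3 control and 3 PM2.5-treated GC-2spd libraries was sequenced as 150-base pairs, after TRIzol extraction and the NEBNext Ultra kit. Per the labels and the submitters' processing notes, reads were mapped with HISAT2 2.0.5 and counted with featureCounts 1.5.0-p3, and the notes name mm9 as the build. The authors deposited FPKM per gene. Whether the counting used the strand, and how reads with several matches were treated, is not given in the sources used here. Ensembl identifiers were matched to GENCODE M21 (GRCm38) for gene names, lengths and positions. With its lengths 97.98% to 98.15% of the values under 50 reads were whole (tolerance 0.02 reads), and 24427 of 25249 expressed genes (96.7%) were whole in all 6 libraries. The value of 1 read scaled with size factors computed as medians of ratios (1.06 to 1.11, and 0.769 in control replicate 2), so the FPKM were scaled between libraries by the authors.

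Groups and replicate numbers came from the labels. PM2.5 was compared with control on the log2(FPKM + 1) scale with limma 3.58.1 (R 4.3.3, statmod 1.5.0, with a mean-variance trend and robust moderation). The 11884 genes averaging 1 FPKM or more over all 6 libraries were tested, also in the fits that left out a library. Benjamini-Hochberg adjustment was over all of them, with calls at an adjusted p under 0.05. Shares were compared with a two-sided exact permutation test (scipy 1.17.1). Counting intervals are Wilson intervals. Sequence shared with nuclear genes was measured in the GENCODE transcripts with windows of 31 and 100 bases, and sequences were read from the same transcripts. Tables and figures used numpy 2.4.6, pandas 2.3.3 and matplotlib 3.10.9. The members and lists were chosen with earlier results of these data known.

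Values in every library are given for the mRNAs, the rRNAs and the tRNAs with at least 10 reads in every library. Of the nuclear genes of mitochondrial gene expression, Polrmt, Tfam, Tfb2m, Tefm, Lrpprc and Slirp are named, with those at an unadjusted p under 0.05 with all libraries or called without control replicate 2. Of the respiratory chain genes, the 3 with the smallest p in each fit are named. mt-Tr, mt-Ta, mt-Ty, mt-Ti and the marker genes were named after their values were seen. Alternatives were the replicate number as a block, leaving out each library, a pseudocount of 0.1, other filters, a further threshold of log2 fold change above 1, 3 other scalings, voom, and other forms of the shares. Those combined with leaving out control replicate 2 were chosen after seeing the data.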

Additional observations from a re-analysis of the deposited data

How the results depend on the processing

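Leaving out control replicate 2 turned the direction of 17 of 35 results, and no other library turned more than 2. Without each library in turn, the difference in the share of mitochondrial reads (PM2.5 minus control) ran from -6.24 to 0.163 percentage points, the part of mt-Co1 in the mRNA pool from -2.13 to 4.57 percentage points and the median log2 fold change of the 13 mRNAs from -1.78 to 0.0077. In the same fits the log2 fold change ran from -1.36 to 0.78 for mt-Rnr1, -1.27 to 0.088 for mt-Rnr2, -1.66 to 0.42 for mt-Nd1, -2.13 to 0.10 for mt-Nd4, -1.09 to 0.35 for mt-Nd4l, -1.26 to 0.0077 for mt-Nd5, -1.94 to 0.25 for mt-Cytb, -1.47 to 0.033 for mt-Co1 and -0.68 to 0.33 for mt-Atp8. Among the tRNAs it ran from -1.18 to 0.47 for mt-Tl1, -0.41 to 1.25 for mt-Ti, -1.62 to 0.66 for mt-Tn, -2.21 to 0.38 for mt-Tc, -1.88 to 0.13 for mt-Tg, -1.18 to 1.06 for mt-Th and -0.36 to 1.01 for mt-Te. The highest value came without control replicate 2 for all of these but the part of mt-Co1, whose lowest did. mt-Ti and mt-Te turned below 0 without control replicate 1, and mt-Atp8 also turned above 0 without PM2.5 replicate 3.

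Mitochondrial genes called stayed at 0 in all alternatives but 1. Genes of mitochondrial gene expression called ran from 0 to 1 when each library was left out, the 1 being Pus1 without control replicate 2. Respiratory chain genes called stayed at 0. Over all genes, 11 were called with all libraries, 118 without control replicate 2 and 0 without any other single library. Pseudocount 0.1 gave 9, scaling to all reads 6, to nuclear reads 8, quantile normalization 10, at least 10 reads in every library 1, and no filter, voom and the block 0 each. Quantile normalization changed the median of the 13 mRNAs from -1.18 to -0.46. Scaling to all reads moved the median of all genes from 0.02 to 0.13 and voom to 0.16.

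The labels do not say whether samples with the same number were paired. Their deviations from the group means correlated at -0.28, 0.18 and 0.25, and those of samples with different numbers at -0.28 to 0.29. These values cannot decide it, since the deviations in a group sum to 0 and control replicate 2 stood apart from the other controls. With the replicate block 0 mitochondrial genes were called with all libraries, and 1, mt-Ta, without control replicate 2, where the median of the 13 mRNAs was 0.0049 and 0 genes of mitochondrial gene expression were called. Scaling to all reads without control replicate 2 gave a median of 0.021 and 1 call among the genes of mitochondrial gene expression, and voom without it a median of 0.020 and 0 calls. The cause was not tested. Apart from leaving out a library, no alternative turned the direction of the 29 mitochondrial genes for which alternatives were computed. mt-Tv, mt-Tq, mt-Tm and mt-Tt were not among them. Thin coverage limits the tRNAs and mt-Atp8, and shared sequence limits mt-Co2, mt-Co3, mt-Atp6, mt-Nd3 and mt-Nd4l. Shared sequence also limits mt-Nd4, mt-Co1 and mt-Nd2 in part.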
